A study of Mus musculus with 10 samples.

Results

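The 9 genes Pf4, Ppbp, Gp1ba, Gp1bb, Gp9, Gp5, Itga2b, Itgb3 and Treml1 encode granule proteins and surface receptors of megakaryocytes and platelets. They were taken by name, by the match of their Ensembl identifiers, from a table of 55401 genes, and all 9 were found in it. The table holds RNA-seq counts from whole livers of 10 female mouse fetuses at E18.5 (embryonic day), 1 fetus per library. In 5 fetuses (Mir483Pat-KO) the microRNA gene Mir483 was missing from the allele inherited from the father, and 5 WT littermates that inherited an intact allele served as controls. The allele was made in C57BL/6N ES cells, whose selection marker was removed with Cre in culture. Cells of 2 clones were injected into blastocysts, and the line was kept on C57BL/6J. Every cell of a mutant fetus therefore carries the deletion, and which clone the fetuses descend from is not given in the sources used here. The comparison asks whether loss of the microRNA alters the transcriptome of the late fetal liver.

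Megakaryocytes are large polyploid cells of the blood-forming lineage that shed platelets. The fetal liver makes blood until the bone marrow takes over around birth, so its megakaryocytes are measured together with hepatocytes, erythroid cells and other blood cells. Pf4 and Ppbp are chemokines stored in platelet alpha granules. Gp1ba, Gp1bb, Gp9 and Gp5 are the subunits of the GPIb-IX-V complex, which binds von Willebrand factor. Itga2b (CD41) and Itgb3 pair as the alphaIIb-beta3 integrin, the fibrinogen receptor that links platelets to each other. Treml1 (TLT-1) is a receptor kept in alpha granules and brought to the surface on activation. The hormone thrombopoietin (Thpo), made largely by hepatocytes, drives the lineage.

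Transcription factors of the GATA and ETS families act together at many megakaryocyte promoters, so the stretch before the start of each gene is shown here for 5 members, as the regulatory context of the members. The sequences are from RefSeq (GRCm38.p6), which gave a promoter for 8 of the 9 members, all but Itgb3. Each runs 5′ to 3′ on the strand of the gene over the 150 bases that end just before the RefSeq start. Capitals mark 6-letter words. The GATA words were AGATAA and the same word beginning with T, and the ETS words were AGGAAG and the same word beginning with C. Both strands were searched, so that a reverse complement is also in capitals. No words of the 2 families share bases in these sequences. The Itga2b stretch lies inside the longer gene model of the GENCODE annotation, which starts further upstream.
Gp1ba, chr11:70638972-70639121, plus strand: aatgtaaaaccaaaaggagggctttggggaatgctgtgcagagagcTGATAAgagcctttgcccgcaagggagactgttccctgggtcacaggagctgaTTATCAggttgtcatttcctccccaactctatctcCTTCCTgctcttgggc
Gp5, chr16:30310782-30310931, minus strand: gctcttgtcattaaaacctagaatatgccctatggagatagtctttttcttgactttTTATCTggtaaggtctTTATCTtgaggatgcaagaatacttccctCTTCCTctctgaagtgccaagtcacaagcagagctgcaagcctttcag
Gp9, chr6:87777920-87778069, plus strand: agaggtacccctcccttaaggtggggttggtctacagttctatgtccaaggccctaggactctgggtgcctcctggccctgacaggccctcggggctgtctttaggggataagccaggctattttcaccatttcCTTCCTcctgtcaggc
Itga2b, chr11:102469884-102470033, minus strand: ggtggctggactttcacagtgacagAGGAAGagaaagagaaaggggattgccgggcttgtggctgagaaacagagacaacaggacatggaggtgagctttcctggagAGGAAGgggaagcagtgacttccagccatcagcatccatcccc
Pf4, chr5:90772285-90772434, plus strand: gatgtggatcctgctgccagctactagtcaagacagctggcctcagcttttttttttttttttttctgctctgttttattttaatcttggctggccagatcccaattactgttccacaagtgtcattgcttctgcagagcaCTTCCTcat

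Over the full 250 bases before the start, an ETS word was present in 6 of the 8 member promoters and in 39.2% of 32851 RefSeq promoters. A GATA word was present in 2 of the 8, Gp1ba and Gp5, and in 16.6% of all promoters. Those same 2 members held both kinds of word, as did 5.49% of all promoters. Every member printed above holds an ETS word, whereas Ppbp and Treml1, which are not printed, hold no word of either kind. In Gp1ba the GATA words begin 104 and 51 bases before the start and the ETS word 16 bases before it. In Gp5 the GATA words begin 93 and 77 bases and the ETS word 48 bases before the start. A match describes the letters only, and no binding was measured.

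The deleted gene gives rise to a 5p and a 3p arm of miR-483, and microRNAs pair with messages mainly through their seed, bases 2 to 8, shown in capitals. Their genes lie on the minus strand of chromosome 7 (RefSeq, GRCm38.p6).
mmu-miR-483-3p, chr7:142654932-142654952: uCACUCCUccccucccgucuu
mmu-miR-483-5p, chr7:142654968-142654989: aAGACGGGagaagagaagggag

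The 7 bases complementary to each seed were searched in the 3′ UTR of each of the 9 members, taken at its longest in the annotation. One site was found, for miR-483-3p in Itgb3, and none was found for miR-483-5p. The site lies in the last of 15 exons of Itgb3, at chr11:104669794-104669800 on the plus strand (GRCm38), from position 2649 of a 3′ UTR of 3331 bases. With 8 bases on either side it reads, with the site in capitals:
Itgb3 site: cttcagtaAGGAGTGgctgatcc
Of 21103 genes with an annotated 3′ UTR, 11.7% hold this site, as do 24.6% of the 1156 genes whose 3′ UTR is within 10% of the length of that of Itgb3. The level of Itgb3 in the 2 genotypes is given with the integrin below.

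Total counts per library ranged from 10831350 to 14765880. No 2 libraries of a group were alike within counting error, and all 10 were treated as separate. Mir483 itself had 10 to 22 counts in each WT library and 0 in each Mir483Pat-KO library (edgeR quasi-likelihood test, adjusted p = 0.00133). These libraries were made from polyA RNA, so that its counts do not measure the mature microRNAs. Identification numbers in the labels fell into a lower range, with 4 WT and 2 Mir483Pat-KO fetuses, and an upper range, with 1 WT and 3 Mir483Pat-KO fetuses. The sources used here do not say what the ranges stand for. As a check of the tissue, all 12 hepatocyte genes listed were measured, and Alb (albumin) had at least 1122501 counts in every library. Sequencing indexes were assigned in blocks by genotype, so that their order and the genotype cannot be told apart.

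Levels are given as CPM, counts scaled by the effective size of each library. Differences are log2 fold changes of Mir483Pat-KO over WT, tested with edgeR's quasi-likelihood test and adjusted by Benjamini-Hochberg over the 14098 genes that passed a filter on low counts. Of all genes tested, 5.19% passed an adjusted p under 0.05, 2.76% as lower and 2.43% as higher in Mir483Pat-KO.

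None of the measured members passed as different between genotypes. Of the 9 members 8 passed the filter on low counts, and 0 of these 8 passed the adjusted threshold in either direction. At an unadjusted p under 0.05 the count was also 0 of 8, against 22.2% of all genes tested, and DESeq2 likewise passed 0. This unadjusted count depended on 1 library, as it was 6 of 8 without WT replicate 3. The estimate was below 0 for 7 of the 8, with a median log2 fold change of −0.20. Of all genes tested 49.1% had an estimate below 0, and their median was 0.0042. The median over the members was −0.0576 without WT replicate 1 and −0.316 without WT replicate 3. Because the members rise and fall together across livers, the 8 estimates are not separate observations. The groups overlapped for all 8 measured members, and 6.60% of all genes tested had groups that did not overlap. With so small a share, overlap for all of 8 genes does not set the members apart. In whole liver, a change in the number of megakaryocytes and a change in RNA per megakaryocyte cannot be told apart.

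**Figure D1:**
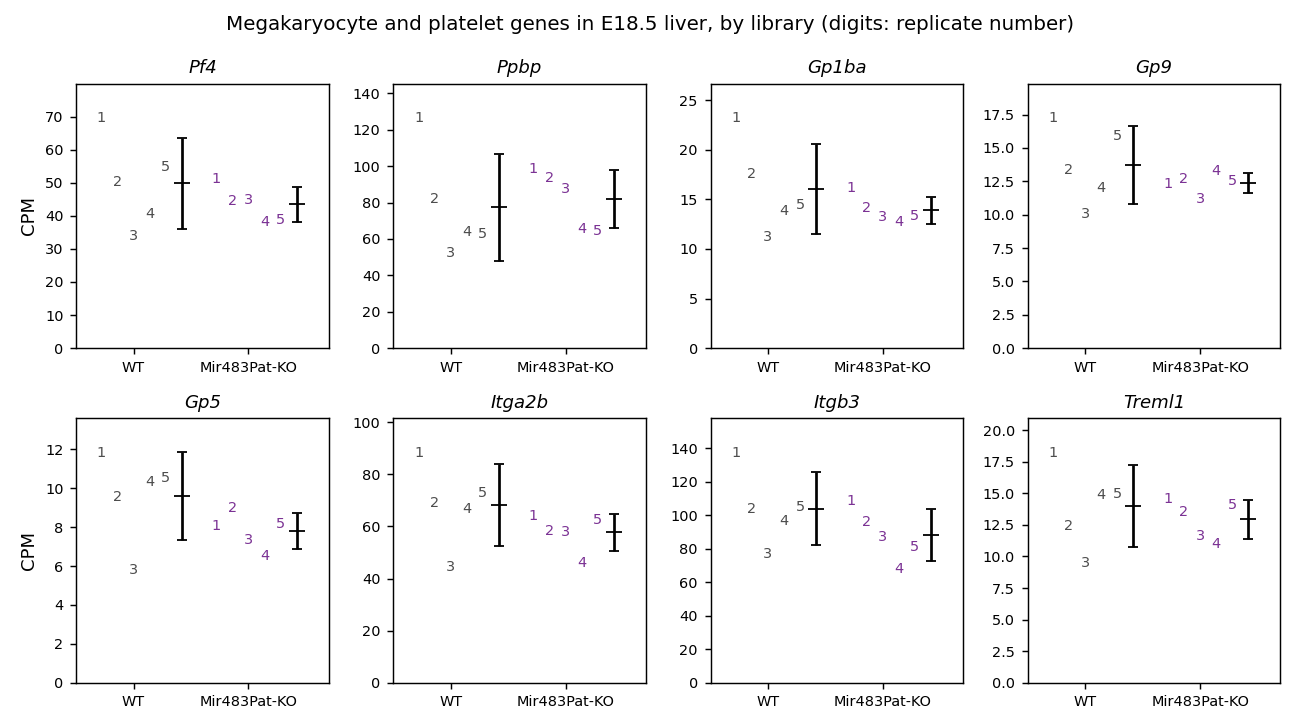
CPM (y axis, from 0) of the 8 measured members in each liver, with WT in grey and Mir483Pat-KO in purple. Digits are replicate numbers, and the bar to the right of each group is the mean ± SD (n = 5). WT replicate 1 is the highest library in all 8 panels, and the groups overlap in each.

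The alpha-granule chemokines Pf4 and Ppbp are described first. Pf4 (ENSMUSG00000029373, chromosome 5, 90772435 to 90773383, plus strand) had 69.5, 50.1, 34.0, 40.7 and 54.6 CPM in WT replicates 1 to 5, and 51.1, 44.5, 44.7, 38.3 and 38.7 CPM in Mir483Pat-KO replicates 1 to 5. All 5 Mir483Pat-KO values lay inside the WT range. The means were 49.8 ± 13.7 CPM in WT livers and 43.5 ± 5.25 CPM in Mir483Pat-KO (SD over 5 livers per group), and the log2 fold change was −0.19 with a 95% interval of −0.50 to 0.12 (edgeR adjusted p = 0.470). Single libraries moved this value, to −0.05 without WT replicate 1 and −0.32 without WT replicate 3, and it was −0.02 in the lower range alone.

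Ppbp (ENSMUSG00000029372), which encodes the precursor of CXCL7, lies beside Pf4 on chromosome 5 (90768518 to 90770063, plus strand). It had 126.4, 81.9, 52.4, 63.8 and 62.7 CPM in WT livers and 98.5, 93.6, 87.3, 65.7 and 64.6 CPM in Mir483Pat-KO. The Mir483Pat-KO libraries again fell within the WT range, which WT replicate 1 set at the top and WT replicate 3 at the bottom. Ppbp was the only measured member with an estimate above 0, a log2 fold change of 0.08 (95% interval −0.32 to 0.49, edgeR adjusted p = 0.834). Its sign turned with offsets for GC content and length (−0.05) and without WT replicate 3 (−0.04), and without WT replicate 1 it was 0.33.

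The ratio of the 2 chemokines within a library was compared next, since it does not depend on how many cells of the lineage a liver holds as long as both come from the same cells. Pf4 to Ppbp, as a ratio of CPM, was 0.550, 0.612, 0.648, 0.638 and 0.871 in WT and 0.519, 0.475, 0.512, 0.582 and 0.599 in Mir483Pat-KO. All 5 Mir483Pat-KO libraries lay below the WT median, and 3 lay below every WT library. The ratio was 0.817-fold that of WT (two-sided exact permutation test, p = 0.0317). On the log2 scale the difference was −0.292, and it was −0.189 without WT replicate 5 and −0.355 without WT replicate 1. Adjusted over the 3 ratios tested the p was 0.0952. Over the alternatives run for the ratios it was 0.0476, without WT replicate 1, to 0.238. These did not include offsets for GC content and length. With such offsets the log2 fold changes were −0.208 for Pf4 and −0.0506 for Ppbp, against −0.193 and 0.085 in the main fit.

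The GPIb-IX-V complex had 3 measurable subunits. Gp1ba (ENSMUSG00000050675, chromosome 11, 70639122 to 70642036, plus strand) encodes the chain that binds von Willebrand factor. It had 23.2, 17.5, 11.2, 13.9 and 14.4 CPM in WT livers and 16.2, 14.1, 13.2, 12.7 and 13.3 CPM in Mir483Pat-KO. Apart from WT replicates 1 and 2, which were higher, and WT replicate 3, which was lower, the libraries of both groups lay together. The log2 fold change was −0.20 (95% interval −0.52 to 0.12, edgeR adjusted p = 0.474), with −0.04 when WT replicate 1 was left out and −0.32 when WT replicate 3 was.

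Gp9 (ENSMUSG00000030054, chromosome 6, 87778072 to 87779768, plus strand) encodes the small subunit that the complex needs to reach the surface. It had 17.2, 13.3, 10.1, 12 and 15.9 CPM in WT livers and 12.3, 12.7, 11.2, 13.3 and 12.5 CPM in Mir483Pat-KO. Its Mir483Pat-KO values were the most even of any measured member, with a CV of 6.18% against 21.1% in WT. The log2 fold change was −0.15 (95% interval −0.42 to 0.13, edgeR adjusted p = 0.539). Leaving out WT replicate 1 gave −0.06 and leaving out WT replicate 3 gave −0.25, and offsets for GC content and length also gave −0.06.

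Gp5 (ENSMUSG00000047953, chromosome 16, 30307685 to 30310779, minus strand) encodes a subunit that thrombin cleaves. It had 11.8, 9.55, 5.79, 10.3 and 10.5 CPM in WT livers and 8.04, 8.96, 7.35, 6.50 and 8.16 CPM in Mir483Pat-KO. Of the WT libraries 4 lay above every Mir483Pat-KO library, and WT replicate 3 lay below every one. Gp5 had the lowest estimate of the measured members, −0.29 on the log2 scale (95% interval −0.63 to 0.05, edgeR adjusted p = 0.303). Without WT replicate 3 the value was −0.44 with an adjusted p of 0.0565, the lowest of any member in any alternative tried. It was −0.22 without WT replicate 1 (adjusted p = 0.470), −0.17 with offsets for GC content and length (adjusted p = 0.621) and −0.13 in the lower range alone (adjusted p = 0.848).

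Gp1bb (ENSMUSG00000050761, chromosome 16, 18620317 to 18622403, minus strand), which is bound to Gp1ba by disulfide bonds, could not be measured. It had 1 count in WT replicate 1 and in Mir483Pat-KO replicates 2 and 5, and 0 in the other libraries, where a count of 0 allows up to 0.211 to 0.271 CPM. Its partners Gp1ba and Gp9 had at least 141 counts in every library. In the GENCODE annotation 92.9% of its 2087 exonic bases are shared on the same strand with exons of Sept5 and Gm49601, which leaves 149 bases of its own. The authors counted reads per gene with STAR, and how reads in shared exons were treated is not given in the sources used here, so the counts give no level for Gp1bb. Sept5, a septin gene whose exons overlap those of Gp1bb, had 17 to 30 counts per library, 2.03 ± 0.188 CPM in WT livers and 1.96 ± 0.329 CPM in Mir483Pat-KO (SD over 5 livers per group, edgeR adjusted p = 0.917).

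The ratio of Gp1ba to Gp9 stood in for the ratio of Gp1ba to Gp1bb, a choice made after the counts were seen. On the log2 scale it was 0.21 ± 0.23 over WT livers and 0.16 ± 0.17 in Mir483Pat-KO (SD over 5 livers per group). The difference of −0.05 was smaller than either SD (two-sided exact permutation test, p = 0.738, adjusted p = 0.873).

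The integrin chains were read at high counts. Itga2b (ENSMUSG00000034664, chromosome 11, 102453297 to 102470122, minus strand) had 88.2, 68.9, 44.3, 66.8 and 72.9 CPM in WT livers and 63.9, 58.2, 57.7, 45.9 and 62.6 CPM in Mir483Pat-KO. As for Gp5, 4 WT libraries lay above every Mir483Pat-KO library and WT replicate 3 lay below all of them. The log2 fold change was −0.24 (95% interval −0.53 to 0.05, edgeR adjusted p = 0.322), and it moved to −0.14 without WT replicate 1 (adjusted p = 0.567) and to −0.37 without WT replicate 3 (adjusted p = 0.0580). It was −0.13 in the lower range alone and −0.12 with offsets for GC content and length.

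Itgb3 (ENSMUSG00000020689, chromosome 11, 104608000 to 104670476, plus strand) had 137.1, 103.6, 76.9, 96.6 and 104.7 CPM in WT livers and 108.7, 95.9, 87.2, 67.7 and 80.9 CPM in Mir483Pat-KO. It is the member with the seed site shown above for miR-483-3p, and the only one for which a Mir483Pat-KO library, replicate 4, was the lowest of all 10. The log2 fold change was −0.24 (95% interval −0.52 to 0.05, edgeR adjusted p = 0.323), which became −0.12 without WT replicate 1 and −0.02 in the lower range alone. In the other direction, Itgb3 was −0.34 without WT replicate 3 and −0.33 without Mir483Pat-KO replicate 1. Its ratio to Itga2b, taken as Itga2b over Itgb3, ran from 0.576 to 0.697 over WT livers and from 0.588 to 0.774 in Mir483Pat-KO, and differed by 0.013 on the log2 scale (two-sided exact permutation test, p = 0.873, adjusted p = 0.873).

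Treml1 (ENSMUSG00000023993, chromosome 17, 48359916 to 48367176, plus strand) had 18.2, 12.4, 9.51, 14.9 and 14.9 CPM in WT livers and 14.5, 13.5, 11.6, 11 and 14.1 CPM in Mir483Pat-KO. The Mir483Pat-KO values lay inside the WT range. The log2 fold change was −0.10 (95% interval −0.41 to 0.20, edgeR adjusted p = 0.719), and among the libraries of the lower identification range alone it was 0.03. It was near 0 without WT replicate 1 (−0.0026) and −0.23 without WT replicate 3.

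The intervals bound what these livers could show. For the 8 measured members the lower ends of the 95% intervals corresponded to 0.648-fold for Gp5 up to 0.802-fold for Ppbp, and the upper ends to 1.03-fold for Gp5 up to 1.40-fold for Ppbp. A p that misses the threshold does not show that the genotypes are alike.

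**Figure D2:**
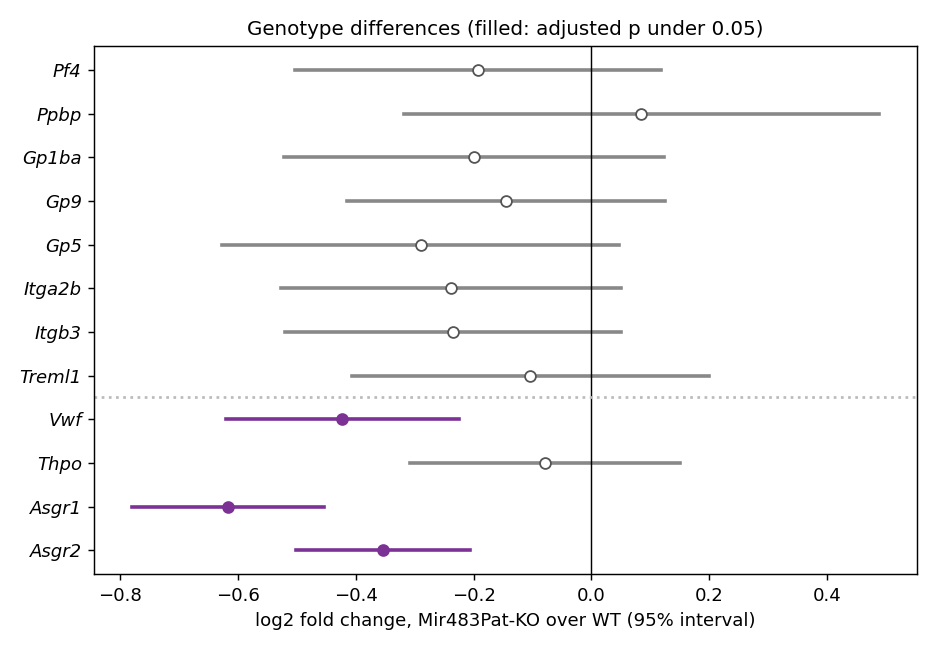
Log2 fold change of Mir483Pat-KO over WT (x axis) with its 95% interval for the 8 measured members (above the dotted line) and for Vwf, Thpo, Asgr1 and Asgr2 (below it). Filled purple points passed an adjusted p under 0.05. The intervals of the 8 members and of Thpo cross 0, and those of Vwf, Asgr1 and Asgr2 lie below it.

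Levels of different members can be compared only per length, as RPKM (CPM divided by the exonic length in kilobases). That length joins the exons of all annotated transcripts, which can lower the RPKM of a gene with many. Itga2b has 10 annotated transcripts, and Ppbp, Gp9 and Gp5 have 1 each, so the order is approximate. In WT the order was Ppbp with 71.5 ± 27.1, Pf4 with 69.0 ± 18.9, Itgb3 with 17.6 ± 3.68, Gp9 with 15.6 ± 3.28, Itga2b with 12.5 ± 2.89, Treml1 with 9.97 ± 2.31, Gp1ba with 5.90 ± 1.68 and Gp5 with 4.37 ± 1.04 RPKM (SD, n = 5). Between Pf4 and Itgb3 and between Treml1 and Gp1ba the step was larger than either SD, and the other neighbours in the order differed by less than the larger of their SDs. These SDs are between livers. The members rise and fall together, so the SDs do not measure the error of a step within a liver, which was not tested. The order of the means was the same in Mir483Pat-KO, from 75.6 ± 14.6 RPKM for Ppbp to 3.55 ± 0.422 RPKM for Gp5 (SD, n = 5). The chemokine messages therefore stood well above those of the receptors in both groups.

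The members varied more between WT fetuses than between the group means. WT replicate 1 was the highest of all 10 libraries for 8 of the 8 measured members. WT replicate 3 was the lowest of its group for all 8 and the lowest of all 10 libraries for 7, Itgb3 being the exception. The fold between these 2 littermate controls ran from 1.71 for Gp9 to 2.41 for Ppbp, whereas the fold between the highest and lowest Mir483Pat-KO library ran from 1.19 for Gp9 to 1.61 for Itgb3. Among Mir483Pat-KO fetuses, replicate 1 was highest for 6 members and replicate 4 lowest for 6.

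**Figure D3:**
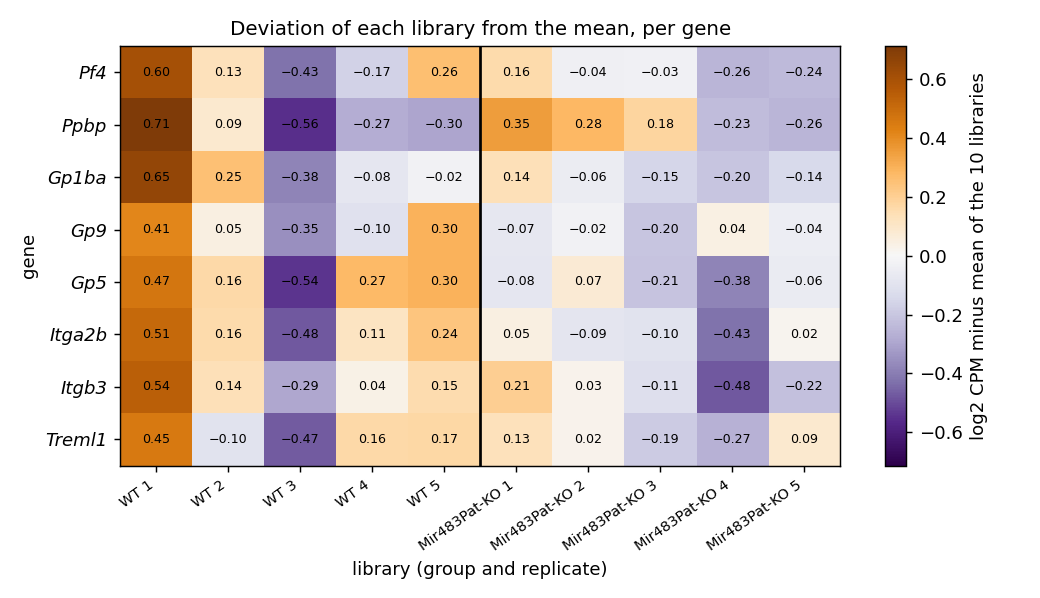
Deviation of each library (columns, WT left and Mir483Pat-KO right of the line) from the mean of the 10 libraries for each measured member (rows), in log2 CPM. Orange is above and purple below the mean. The WT 1 column is orange and the WT 3 column purple in every row, and in all rows but Itgb3, where Mir483Pat-KO 4 is darker than WT 3, the Mir483Pat-KO cells are paler than both.

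The SD of log2 CPM was larger in WT than in Mir483Pat-KO for 8 of 8 measured members. Over all genes tested this held for 54.9%, and for 55.8% of the 8023 genes whose mean level lay within the range of the members. The median SD over the members was 0.38 in WT and 0.17 in Mir483Pat-KO, and over all genes tested it was 0.17 and 0.16. Without WT replicate 1 the median over the members in WT was 0.29. Because the members rise and fall together, these 8 values stand for the same few livers and are not separate observations, and the difference in spread was not tested.

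How closely the members moved together was described by the deviations of each library from the mean of its group, in log2 CPM. Over the 10 libraries, Pearson's r between 2 members had a median of 0.81 over the 28 pairs and ran from 0.56 to 0.94. Without WT replicate 1 the median was 0.72 and the lowest value 0.17, and without WT replicate 3 they were 0.68 and 0.32. These correlations rest on the same 10 livers, 2 of which lie at the ends for nearly every member, and they carry no p.

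The genes whose deviations were most like the mean deviation of the 8 measured members were then ranked among 13904 other genes. The first 10 were Tubb1 with r = 0.986, Prkcq with 0.975, Alox12 with 0.968, Slc2a3 with 0.951, Rab44 with 0.940, Cap1 with 0.940, Gnaz with 0.933, Ctcf with 0.932, P2rx1 with 0.931 and Slc6a4 with 0.928, over 10 libraries. Tubb1 encodes the beta-tubulin of platelets, Alox12 the platelet 12-lipoxygenase and P2rx1 an ATP-gated channel, and these 3 stood on a list of 61 other megakaryocyte and platelet genes. Slc6a4 encodes the serotonin transporter, Prkcq a protein kinase C, Slc2a3 a glucose transporter and Ctcf a chromatin factor found in most cells. Of the first 100 genes 16 were on the list, which makes up 0.439% of the genes ranked. Without WT replicate 1 the count was 10, and without WT replicate 3 it was 12.

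The ranking leaned on the 2 WT livers at the ends. Without WT replicate 1 the first 10 shared 5 genes with those named, and without WT replicate 3 they shared 4. The 10 named genes themselves had r between 0.865 and 0.982 without WT replicate 1, and between 0.841 and 0.971 without WT replicate 3.

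Over whole lists, the 61 other megakaryocyte and platelet genes had a median r of 0.60, against −0.01 over all genes. The 12 neutrophil genes, among them the granule enzymes Elane, a protease, and Mpo, a peroxidase, had a median r of 0.69, which was 0.62 without WT replicate 1 and 0.42 without WT replicate 3. For the megakaryocyte and platelet list the corresponding medians were 0.53 and 0.56. The 18 erythroid genes measured had a median of −0.39, and 12 hepatocyte genes 0.30. The summed CPM of the neutrophil genes was highest in WT replicate 1 (4186 CPM) and lowest in WT replicate 3 (2813 CPM), the same livers that were at the ends for the members. Among Mir483Pat-KO livers it was lowest in replicate 1 (3548 CPM), which was highest for 6 members. The part of the neutrophil content in the members' values was not tested.

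**Figure D4:**
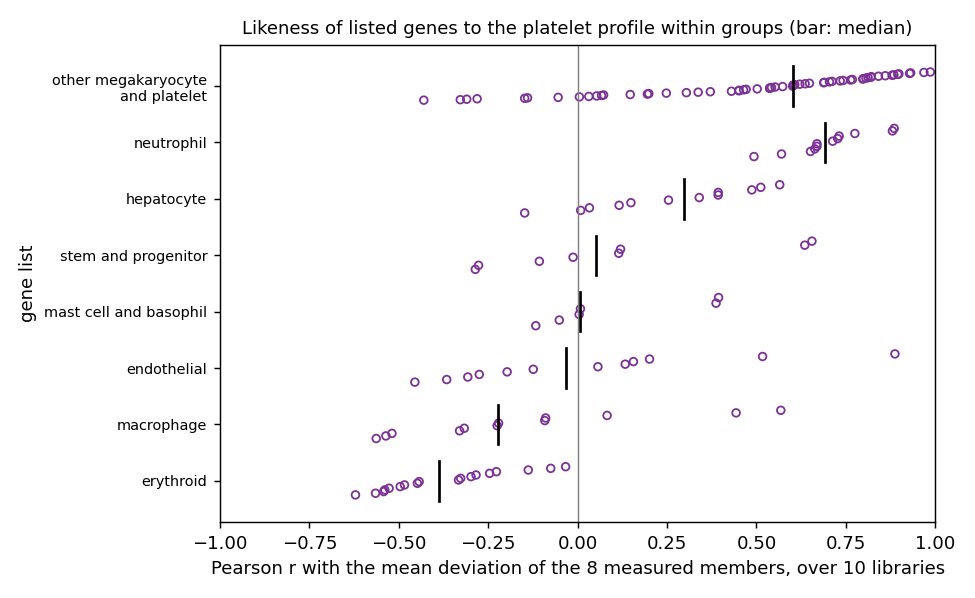
Pearson's r over 10 libraries (x axis) between each listed gene and the mean deviation of the 8 measured members, by cell type list (y axis), with the median of each list as a black bar. The bars of the other megakaryocyte and platelet genes (0.60) and the neutrophil genes (0.69) lie furthest to the right, and all erythroid genes lie left of 0.

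The signal that drives the lineage was examined through its hormone. Thpo (ENSMUSG00000022847) had 11.8 ± 1.24 CPM in WT livers and 11.1 ± 1.25 CPM in Mir483Pat-KO (SD over 5 livers per group), and the log2 fold change was −0.08 (95% interval −0.31 to 0.15, edgeR adjusted p = 0.717). With a library left out the value ran from −0.14, without WT replicate 3, to −0.03, without Mir483Pat-KO replicate 4, and it was −0.0028 in the lower range alone.

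Messages for the hepatocyte receptor that takes up aged platelets were lower in Mir483Pat-KO, and its protein was not measured. Its chains, Asgr1 and Asgr2, form the Ashwell-Morell receptor, which binds platelets that have lost sialic acid and is known to stimulate Thpo production. Asgr1 (ENSMUSG00000020884) had 122.4, 126.7, 140.3, 131.2 and 137.6 CPM in WT livers and 96.3, 73.9, 89.6, 90.4 and 79.1 CPM in Mir483Pat-KO. Asgr2 (ENSMUSG00000040963) had 44.8, 42.7, 45.6, 45.2 and 51.1 CPM in WT livers and 33.5, 36.7, 34.6, 36.8 and 38.0 CPM in Mir483Pat-KO. The groups did not overlap for either gene.

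Asgr1 fell by 0.62 on the log2 scale (95% interval −0.78 to −0.45, edgeR adjusted p = 0.00133) and Asgr2 fell by 0.35 (95% interval −0.50 to −0.21, edgeR adjusted p = 0.0103). Both passed in 18 of 19 alternatives. In the exception, the libraries of the lower range alone, the log2 fold changes were −0.62 and −0.35 with adjusted p-values of 0.0583 and 0.144. Neither is a platelet gene, and 11 of the 12 hepatocyte genes had estimates below 0, of which Apoa1 passed (log2 fold change −0.30, edgeR adjusted p = 0.0262). The summed CPM of the hepatocyte list was 241800 to 271200 in WT and 217400 to 250100 in Mir483Pat-KO, and the part of the hepatocyte content in the values of Asgr1 and Asgr2 was not tested.

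Of the 61 other megakaryocyte and platelet genes all were tested, 1 passed as lower in Mir483Pat-KO and 0 as higher. The estimate was below 0 for 42 of the 61, and the median log2 fold change was −0.08. At an unadjusted p under 0.05 the count was 14, of which 12 were lower, which is 14 of 61 against the 22.2% of all genes given above. The estimates ran from −0.46 to 0.29. Genes passing as higher appeared under 3 alternatives, namely 2 of 3 calls with offsets for GC content and length, 1 of 2 with the range as a covariate and 1 of 3 without WT replicate 1. Besides Myh9 and F5, described below, the genes gained as lower were Clu (DESeq2, no low-count filter, and without WT replicate 1 or 2), Actn1 (DESeq2 and without Mir483Pat-KO replicate 1) and Mylk (without Mir483Pat-KO replicate 1), which are named after their values were seen.

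The gene that passed was Vwf (ENSMUSG00000001930, chromosome 6, 125546774 to 125686679), which encodes von Willebrand factor, the ligand of the GPIb-IX-V complex, made by megakaryocytes and by endothelial cells. It had 67.3, 60.1, 58.1, 64.2 and 65.3 CPM in WT livers and 58.3, 45.4, 45.7, 37.7 and 47.5 CPM in Mir483Pat-KO. Only Mir483Pat-KO replicate 1 reached the level of the lowest WT library. Vwf fell by 0.42 on the log2 scale (95% interval −0.62 to −0.23, edgeR adjusted p = 0.0180).

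WT replicate 1 was also highest and WT replicate 3 lowest of the WT livers for Vwf, but these ends lay closer together than for the members. The 12 endothelial genes, which include Pecam1 and Cdh5, had estimates below 0 for 11, of which Eng passed (log2 fold change −0.34, edgeR adjusted p = 0.0219). Their summed CPM ran from 593.5 to 666.9 over WT livers and from 521.2 to 619.8 in Mir483Pat-KO, and the part of the endothelial content in the value of Vwf was not tested. Vwf no longer passed with offsets for GC content and length (−0.32, adjusted p = 0.0506) or among the libraries of the lower range alone (−0.27, adjusted p = 0.309).

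By role, the 10 transcription regulators had 7 estimates above 0 and 3 below it, against the 49.1% below 0 among all genes tested, and 0 passed. Under alternatives, Gfi1b and Zfpm1 passed as higher with offsets for GC content and length, and Mef2c with the range as a covariate. These 3 are named after their values were seen. Nfe2, a regulator of platelet release, had 132.5 ± 9.10 CPM in WT livers and 141.2 ± 7.15 CPM in Mir483Pat-KO (edgeR adjusted p = 0.446). Tal1 had 168.9 ± 14.5 and 177.8 ± 15.4 CPM (SD over 5 livers per group, edgeR adjusted p = 0.616). Both are also expressed in erythroid cells, and 16 of the 18 erythroid genes measured had estimates above 0.

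Of those erythroid genes Hbb-bs, Rhag and Kel passed as higher, led by the adult beta-globin Hbb-bs with 0.54 on the log2 scale (edgeR adjusted p = 0.0120). Hbb-bs can share reads with its near copy Hbb-bt. The summed CPM of the erythroid list was 18330 to 23330 in WT and 21380 to 29400 in Mir483Pat-KO. The part of the erythroid content in the values of the regulators and of the members was not tested.

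The 8 genes of the cytoskeleton and of proplatelet formation all had estimates below 0, with a median of −0.20, and 0 passed. Myh9, the non-muscle myosin whose human mutations cause giant platelets, had 417.4 ± 31.0 CPM in WT livers and 350.7 ± 39.8 CPM in Mir483Pat-KO (SD over 5 livers per group, log2 fold change −0.25, edgeR adjusted p = 0.0882). It passed with DESeq2, with the replicate block and without Mir483Pat-KO replicate 1, whereas it was −0.14 with offsets for GC content and length (adjusted p = 0.300) and −0.16 in the lower range alone (adjusted p = 0.493). Flna, an actin cross-linker that anchors Gp1ba, had 394.6 ± 32.6 and 340.9 ± 30.6 CPM (log2 fold change −0.21, edgeR adjusted p = 0.13, and −0.14 both with those offsets and in the lower range). Both genes are expressed in many cell types of the liver.

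Of the 10 genes of integrin activation and signalling 7 had estimates below 0 and 0 passed. Tln1 (talin), which switches the integrin on from inside the cell, had 337.1 ± 19.3 CPM in WT livers and 292.0 ± 28.8 CPM in Mir483Pat-KO (edgeR adjusted p = 0.120). Its partner Fermt3 (kindlin-3) had 120.1 ± 15.1 and 112.1 ± 9.82 CPM (edgeR adjusted p = 0.550).

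Granule contents and biogenesis held Vwf and 11 genes that did not pass. F5, coagulation factor V, which hepatocytes also make, had 325.7 ± 10 CPM in WT livers and 273.2 ± 33.4 CPM in Mir483Pat-KO (log2 fold change −0.25, edgeR adjusted p = 0.0712). It passed with DESeq2, with the replicate block, with offsets for GC content and length, and without Mir483Pat-KO replicate 1, and was −0.19 in the lower range alone (adjusted p = 0.447). Thbs1 (thrombospondin 1) had 204.6 ± 36.6 and 191.5 ± 30.7 CPM (SD over 5 livers per group, edgeR adjusted p = 0.709).

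The receptors and enzymes of platelet activation gave 0 calls, although the podoplanin receptor Clec1b, named after its values were seen, passed as higher without WT replicate 1. Among 9 collagen and podoplanin receptors and their signalling genes, the kinase Syk had 70.3 ± 8.17 CPM in WT livers and 66.3 ± 3.41 CPM in Mir483Pat-KO (edgeR adjusted p = 0.574), and the adaptor Fcer1g 36.6 ± 2.25 and 37.0 ± 2.09 CPM (edgeR adjusted p = 0.912). Among 9 agonist receptors and surface proteins, the tetraspanin Cd9 had 188.1 ± 19.4 and 164.2 ± 6.91 CPM. Its groups did not overlap, but it did not pass (log2 fold change −0.20, edgeR adjusted p = 0.131). Cd36, a receptor for thrombospondin, had 67.4 ± 13.7 and 78.0 ± 8.15 CPM (SD over 5 livers per group, edgeR adjusted p = 0.317).

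Of the 3 genes of eicosanoid synthesis, cyclooxygenase 1 (Ptgs1) had 42.8 ± 3.93 CPM in WT livers and 38.4 ± 3.45 CPM in Mir483Pat-KO (SD over 5 livers per group, edgeR adjusted p = 0.274). Alox12 had 28.3 ± 6.31 and 26.9 ± 3.88 CPM (SD over 5 livers per group, edgeR adjusted p = 0.814). Alox12 is also the third gene in the ranking by likeness above, and its WT spread is the wider, as for the members.

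**Figure D5:**
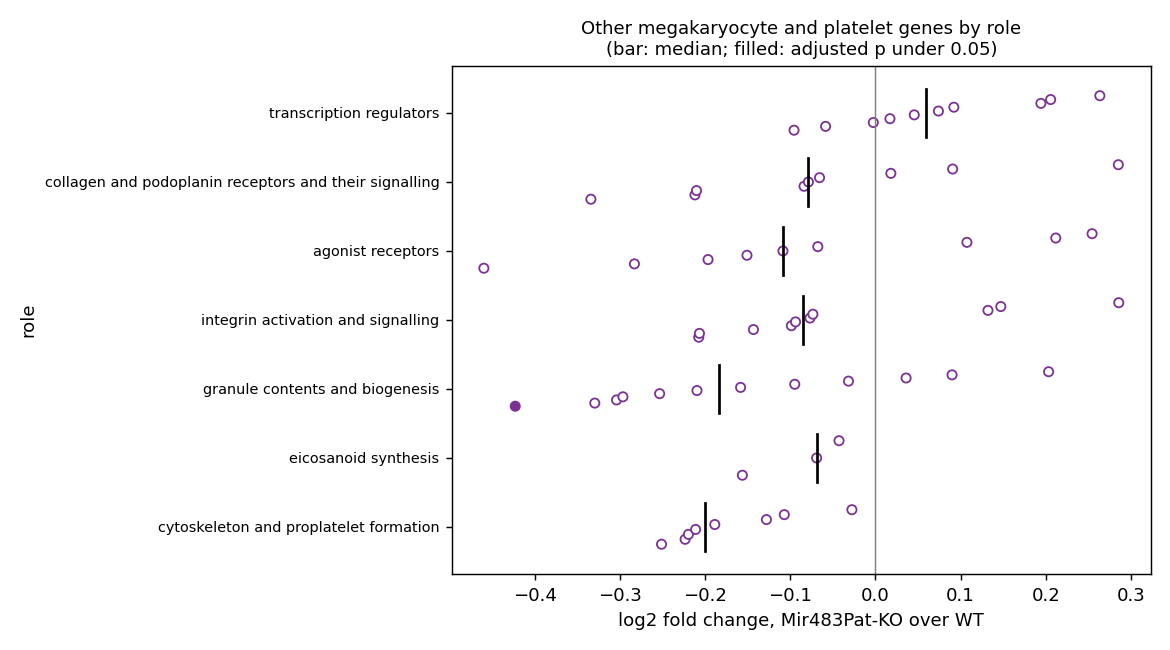
Log2 fold change of Mir483Pat-KO over WT (x axis) for the 61 other megakaryocyte and platelet genes, 1 point per gene, by role (y axis), with the median of each role as a black bar. The filled point at −0.42 is Vwf, the only gene that passed an adjusted p under 0.05. All 8 cytoskeleton genes lie left of 0 and 7 of 10 transcription regulators right of it.

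The remaining lists covered cells that share surface proteins or precursors with megakaryocytes. Of 8 stem and progenitor genes, Ly6a (Sca-1), which endothelial cells also express, passed as lower (log2 fold change −1.15, edgeR adjusted p = 0.0138). Of 8 mast cell and basophil genes 6 were measured and 0 passed, and 0 of 12 neutrophil genes passed. Of 12 macrophage genes, C1qa (log2 fold change −0.29, edgeR adjusted p = 0.0390) and the Kupffer cell lectin Clec4f (log2 fold change −0.46, edgeR adjusted p = 0.0416) passed as lower. Their part in the members' values was not tested.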

How the data were processed

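The authors made stranded polyA libraries from liver RNA, sequenced them as paired ends, aligned the reads to GRCm38 and counted them per gene with STAR, and deposited raw counts per Ensembl gene. The strand setting and the rule for shared or multiply mapped reads are not given in the sources used here. Totals ran from 10831350 to 14765880 counts per library. Limits for a count of 0 are 3 counts of the total and cover counting error only. Groups and replicate numbers came from the sample labels. No source says that replicate numbers pair fetuses.

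Testing used edgeR 4.0.16 in R 4.3.3 (filterByExpr defaults, TMM, quasi-likelihood F-test without covariates, Benjamini-Hochberg over 14098 genes). CPM used TMM-scaled library sizes, and RPKM the exonic length in GENCODE M21. Ratios within a library were compared by exact permutation of the genotype labels (252 arrangements, lowest attainable p 0.00794). Likeness was Pearson's r of deviations from group means of log2 CPM (prior count 2), over genes with a mean log2 CPM of at least 0. On simulated data with 200 genes changed 2-fold, 91% were recovered, and unchanged genes made up 5.2% of those passing. The changed genes were drawn at random from all genes tested. The share does not give the recovery of smaller changes, or of changes in the members, which varied more than most genes.

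Alternatives were RLE scaling, DESeq2 1.42.0, limma-voom (3.58.1), the replicate number as a block, no low-count filter, a filter of 10 counts in every library, the range as a covariate, the lower range alone, offsets for GC content and length, and each library left out. The Gp1ba to Gp9 ratio and the likeness without WT replicates 1 and 3 were added after the data were seen.

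The members and the lists were chosen with earlier results of these data known. Named genes were the members, Thpo, Asgr1, Asgr2, Mir483, the 2 most abundant genes of each role in the list of other megakaryocyte and platelet genes, genes of that list that passed, and the 10 most alike. Genes named from the lists of other cell types are those that passed. The list gene Irag1 was matched through its synonym Mrvi1, and the erythroid gene Ahsp was not matched. Results that rest on items withheld for evaluation are not reported here, and those items were left out of the lists. Figures were drawn with Python 3.11.15 and matplotlib 3.10.9.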

Additional observations from a re-analysis of the deposited data

How the results depend on the processing

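No member passed under any of the 19 alternatives, in which the median log2 fold change over the members ran from −0.32 without WT replicate 3 to −0.05 for the lower identification range alone (4 WT and 2 Mir483Pat-KO libraries). At an unadjusted p under 0.05 the count of members was 3 without the low-count filter, 6 without WT replicate 3 and at most 1 elsewhere. The cause of the changes below was not tested. Over all genes, the 731 that passed became 1160 with DESeq2, 1258 without the filter, 1189 with the range as a covariate and 23 in the lower range alone, and 279 to 863 with a library left out, the lowest without Mir483Pat-KO replicate 4. Of the other megakaryocyte and platelet genes 5 passed with DESeq2, 2 without the filter, 2 with the covariate (1 of them higher), 3 with GC content and length offsets (2 of them higher), 0 in the lower range and 1 to 5 with a library left out, the highest without Mir483Pat-KO replicate 1.

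With the replicate block 1338 genes passed, 3 of them on that list, and 0 members. Deviations of same-numbered libraries correlated at 0.0871 on average (lowest −0.0496) and 2 of 5 WT libraries correlated best with their own number, so the libraries were treated as unpaired.

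Signs turned at small values. With GC content and length offsets Ppbp was −0.0506 and Fermt3 0.0203, and with the range as a covariate Alox12 was 0.00135. In the lower range alone Treml1 was 0.0316, Fcer1g −0.0662, Cd36 −0.0134, Thbs1 0.0561, Alox12 0.142 and the log2 ratio of Itga2b to Itgb3 −0.104. With a library left out, Ppbp ran from −0.038 to 0.325, Fcer1g from −0.015 to 0.0393, Alox12 from −0.198 to 0.03, Itga2b to Itgb3 from −0.045 to 0.0538, Gp1ba to Gp9 from −0.133 to 0.0107, and Pf4 to Ppbp from −0.355 to −0.189. Gp5, with 72 to 149 counts per library, is the measured member whose values are most limited by depth.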
